A study of Mus musculus with 2 samples.

Results

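The forkhead transcription factors Foxo1, Foxo3 and Foxo4, together with 7 genes known as FOXO targets that growth factors repress (Ccng2, Irs2, Pik3ip1, Bcl6, Cited2, Sesn3 and Txnip), were examined in HT22 cells exposed to the neurotrophic compound J147. Every probe set annotated to 1 of these 10 symbols was taken, 22 of the 45037 probe sets of the array that are not controls. The group was chosen by the measured difference between J147 and vehicle as well as by what is known of the genes, since earlier results of the same 2 arrays were in view when it was drawn up. The differences below are therefore descriptions. HT22 cells are an immortalized mouse hippocampal line used as a model of nerve cells. In the J147 group, cells in medium with 10% fetal calf serum received J147 for 1 h before RNA isolation; in the vehicle group, cells of the same line in the same medium received DMSO for 1 h. The concentration of J147 is 10 mM in the sample labels but 10 μM in the methods, and which is right was not settled here. Each condition was measured on 1 array (an Affymetrix mouse whole-genome GeneChip). No difference therefore has a replicate check, no p-value can be given, and an effect of J147 and a chance difference of the 2 cultures cannot be told apart.

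FOXO proteins are transcription factors held in check by growth factors. When insulin or another growth factor activates PI3 kinase and then the kinase AKT, AKT phosphorylates FOXO proteins, 14-3-3 proteins bind them and they leave the nucleus; when the signal falls, they return and activate genes of cell cycle arrest, antioxidant defence, autophagy and cell death. Some FOXO targets act back on the pathway, as Irs2 and Pik3ip1 do. FOXO activity is thus set largely by phosphorylation and location of the protein, which an array of mRNA does not measure.

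The values are gcRMA intensities, a summary of the probes of each probe set after a background correction by GC content, made by the authors. Here each array was scaled to a median of 100, and a probe set was scored where its mean over both arrays exceeded 100. The lowest value of the table then stood at 95.1 on the J147 array and 95.4 on the vehicle array, and 46.0% of probe sets on the J147 array and 46.3% on the vehicle array lay within 0.01 log2 units of it. Of the probe sets of the 10 genes, 18 were scored. The 4 that were not, 1 each for Foxo1, Foxo4, Pik3ip1 and Bcl6, lay at or next to the lowest value on both arrays and can show no difference. Where a gene had several scored probe sets, the brightest stood for the gene. All 10 genes were scored on that basis, among 10611 scored of 18193 annotated genes. Of 8 neuronal markers 2 were scored. These were Tubb3, at 6080 with J147 and 5182 with vehicle, and Syn1, at 432 with J147 and 434 with vehicle. Map2, Snap25, Syt1 and Rbfox3 were among those not scored, while 6 of 7 fibroblast markers were scored. The scored markers of neurons, fibroblasts, astrocytes, microglia and oligodendrocytes all differed by less than 1.5-fold between the arrays, and no endothelial marker was scored. The control probe sets for 18S rRNA had a median log2 difference (J147 minus vehicle) of -0.63, and the contrast between 3′ and 5′ control probe sets changed by -0.06 for Gapdh and -0.03 for Actb. The part of these control values in the differences below was not tested. As a yardstick, the SD of the log2 difference was computed over the 500 scored probe sets closest to each one in mean level, called its neighbours here. This is scatter between probe sets on 1 pair of arrays, not between replicates.

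**Figure D1:**
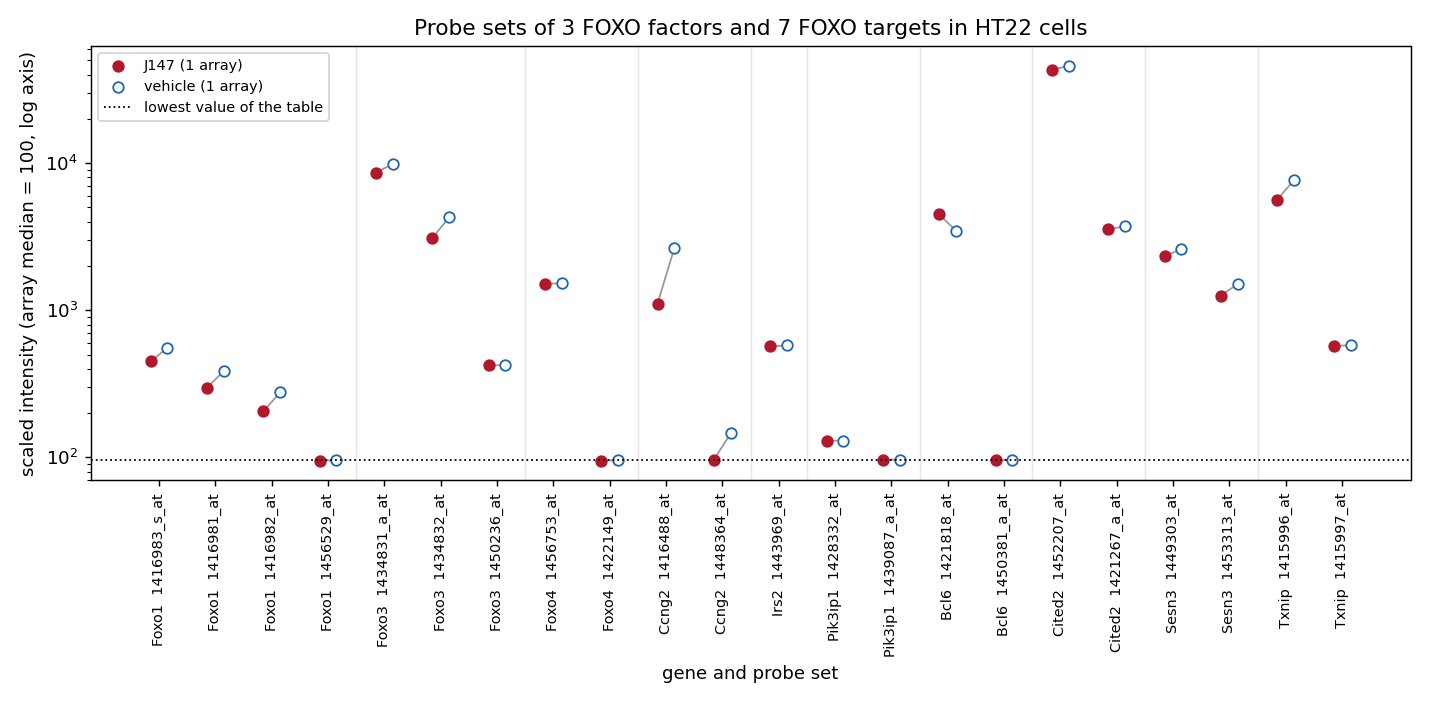
Scaled intensity (vertical log axis, array median set to 100) of each probe set (horizontal axis) of the 10 genes on the J147 array (filled) and the vehicle array (open), 1 array each, with the lowest value of the table dotted. The longest line joins the values of the Ccng2 probe set 1416488_at, 1111 with J147 and 2668 with vehicle.

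Of the 3 FOXO factors, Foxo1 and Foxo3 read lower on the J147 array and Foxo4 did not differ. Foxo1, the factor best known from insulin control of glucose production, had 3 scored probe sets, and all 3 were lower with J147. The scaled intensity was 449 with J147 and 555 with vehicle for 1416983_s_at, 298 with J147 and 386 with vehicle for 1416981_at, and 205 with J147 and 277 with vehicle for 1416982_at. Their log2 differences were -0.31, -0.37 and -0.43, which is 1.22, 1.63 and 2.03 times the SD of their neighbours in level. The 3 probe sets were designed on 1 and the same sequence record, so they are not independent measurements of Foxo1, and the remaining one, from another record, stood at the lowest value on both arrays.

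Foxo3, which drives genes of apoptosis and quiescence and is the FOXO factor most often tied to longevity, gave a different answer from each of its 3 scored probe sets. Its brightest, 1434831_a_at, read 8627 with J147 and 9871 with vehicle, a log2 difference of -0.19, 1.22 times the SD of its neighbours. Probe set 1434832_at had 3091 with J147 and 4285 with vehicle, which is 1.39-fold lower, and 20 of its 500 neighbours differed by at least as much. These 2 share a sequence record. The last, 1450236_at, had 422 with J147 and 425 with vehicle and so showed no difference. A further probe set is annotated to Foxo3 and to another gene and was not read for either. Foxo4, the X-linked member of the family, rested on the single probe set 1456753_at, whose deposited value was identical on both arrays (1517 with J147 and 1521 with vehicle after scaling). gcRMA gave such identical values to 18.9% of all scored probe sets, so identity on the arrays is not a close measurement of an unchanged mRNA.

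Ccng2 stood apart from the other 9 genes. It encodes cyclin G2, an unconventional cyclin that rises in cells leaving the cell cycle and opposes proliferation. By 1416488_at its scaled intensity was 1111 with J147 and 2668 with vehicle, 2.40-fold lower with J147, or 5.54 times the SD of the neighbours. Only 1 of those 500 differed by as much, and among the 10611 scored genes Ccng2 had rank 3 from the lowest difference. The other probe set, 1448364_at, read 96.6 with J147 and 146 with vehicle, just above the lowest level. It was 1.51-fold lower, and its J147 value had next to no room below it. Both probe sets were designed on the same record. The sequence before the Ccng2 start site is shown because it carries, within 16 bases of that site, the letters of the insulin response element through which FOXO proteins act on insulin-repressed genes. It covers chr5:93267323-93267572 (GRCm38.p6, plus strand, from RefSeq), with CAAAACAA in capitals.
Ccng2: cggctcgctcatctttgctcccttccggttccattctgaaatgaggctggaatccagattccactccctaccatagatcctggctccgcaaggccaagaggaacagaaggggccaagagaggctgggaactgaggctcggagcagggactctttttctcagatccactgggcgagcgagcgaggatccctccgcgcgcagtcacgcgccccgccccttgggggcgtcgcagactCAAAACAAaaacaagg

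Txnip was the next lowest. It encodes the thioredoxin-interacting protein, an arrestin-like protein that binds thioredoxin and restrains glucose uptake, and its mRNA is known to follow glucose through the factor MondoA (gene Mlxip) as well as FOXO. By 1415996_at its scaled intensity was 5658 with J147 and 7708 with vehicle, 1.36-fold lower, which is 2.57 times the SD of its neighbours, of which 10 differed by as much. Probe set 1415997_at, from the same record, had identical deposited values (574 with J147 and 576 with vehicle after scaling). The lower reading of Txnip thus comes from 1 of its 2 probe sets, and the mean of both gives a log2 difference of -0.23. Of the 9 genes with a promoter window, Txnip alone holds in it the DAF-16 family element GTAAACA, named for the worm FOXO protein. The bases before its start site, chr3:96557707-96557956 (GRCm38.p6, plus strand, from RefSeq), are shown for that reason, with the element in capitals.
Txnip: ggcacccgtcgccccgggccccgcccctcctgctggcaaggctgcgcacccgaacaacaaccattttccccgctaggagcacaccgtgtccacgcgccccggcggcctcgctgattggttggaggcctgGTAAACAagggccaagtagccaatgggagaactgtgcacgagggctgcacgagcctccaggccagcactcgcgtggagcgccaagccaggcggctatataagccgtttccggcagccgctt

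Sesn3 and Cited2 read slightly lower with both of their probe sets. Sesn3, a sestrin that FOXO proteins induce and that restrains mTORC1, had 2343 with J147 and 2598 with vehicle by 1449303_at, a log2 difference of -0.15, and 1259 with J147 against 1510 with vehicle by 1453313_at, a log2 difference of -0.26. The first lay within the SD of its neighbours and the second was 1.09 times that SD. Cited2, a transcriptional cofactor that binds CBP and p300 and limits HIF-1, had a scaled intensity of 43038 with J147 and 46028 with vehicle by 1452207_at. By 1421267_a_at it had 3555 with J147 and 3734 with vehicle. These log2 differences of -0.10 and -0.07 were within the scatter of probe sets at their levels.

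The 2 targets that encode regulators of PI3 kinase signalling showed no difference. Irs2, an adaptor that carries the signal of the insulin receptor to PI3 kinase, had 568 with J147 and 577 with vehicle by its single probe set 1443969_at, a log2 difference of -0.02. Pik3ip1, an inhibitor of the PI3 kinase catalytic subunit, had 130 on both arrays by 1428332_at. That is 0.45 log2 units above the lowest value, so a fall larger than that could not show in full. The Irs2 promoter carries the same insulin response element letters as that of Ccng2, on the opposite strand and starting 38 bases before the start site. It is shown because it holds these letters, which occur in 2.51% of all promoter windows searched. Whether they bear on the value of either gene was not tested. The sequence covers chr8:11008930-11009179 (GRCm38.p6, minus strand, from RefSeq), printed along the gene with TTGTTTTG in capitals.
Irs2: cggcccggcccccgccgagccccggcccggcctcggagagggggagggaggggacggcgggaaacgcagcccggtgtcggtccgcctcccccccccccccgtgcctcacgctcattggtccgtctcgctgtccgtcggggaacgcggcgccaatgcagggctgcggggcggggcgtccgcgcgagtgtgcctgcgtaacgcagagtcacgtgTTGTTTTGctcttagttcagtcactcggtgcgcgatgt

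Bcl6 went the other way. It encodes a transcriptional repressor that was first studied in B cells and that FOXO factors induce there. By 1421818_at its scaled intensity was 4496 with J147 and 3455 with vehicle, 1.30-fold higher with J147, which is 1.80 times the SD of its neighbours, of which 32 differed by as much. Its other probe set, from the same record, stood at the lowest value on both arrays.

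**Figure D2:**
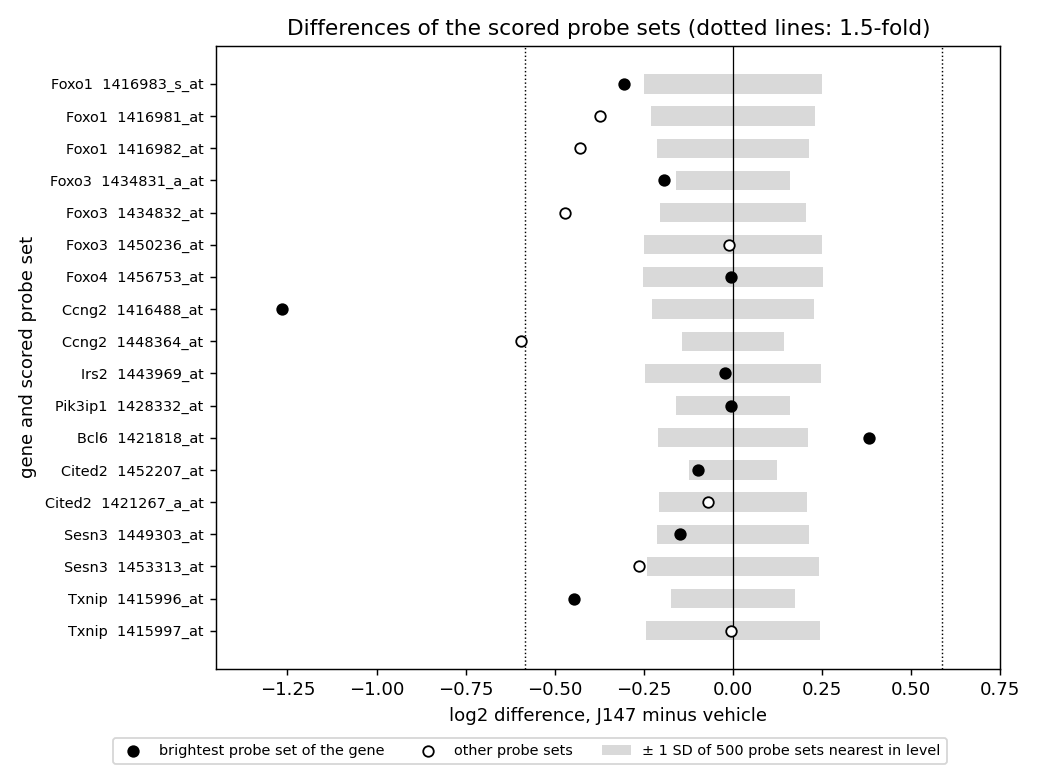
Difference on the log2 scale (J147 minus vehicle, horizontal axis) of the 18 scored probe sets (vertical axis), filled for the brightest of a gene and open for the others, over grey bars of ± 1 SD of their 500 neighbours in level. Both Ccng2 points lie at or beyond 1.5-fold lower, and Bcl6 is the single point to the right of its bar.

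In order of the log2 difference from the lowest up, the 10 genes ran Ccng2 (-1.26), Txnip (-0.45), Foxo1 (-0.31), Foxo3 (-0.19), Sesn3 (-0.15), Cited2 (-0.10), Irs2 (-0.02), Pik3ip1 (-0.01), Foxo4 (-0.00) and Bcl6 (0.38). Apart from Ccng2 and Bcl6 at the ends, genes adjacent in this order differed by less than the SD of probe sets at their levels. That SD is scatter between probe sets, not between replicates. With 1 array per condition, no place in this order is resolved, those at the ends included. At 2-fold, 1 of the 10 was lower, Ccng2, where 0.0754% of all scored genes were. At 1.5-fold the count was again 1 lower and 0 higher, beside 0.81% of scored genes lower and 0.556% higher. At a log2 difference of 0.32 or more in size, 2 were lower (Ccng2 and Txnip) and 1 was higher (Bcl6), beside 4.04% lower and 2.31% higher. Taken as probe sets, 6 of the 18 scored were lower by that much, from Foxo1, Foxo3, Ccng2 and Txnip, and 1 was higher, beside 3.94% of all scored probe sets lower and 3.5% higher. The group was put together with this contrast known, so nothing is read from these shares. The median log2 difference was -0.19 for the 3 factors and -0.10 for the 7 targets, against -0.00 for all scored genes.

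**Figure D3:**
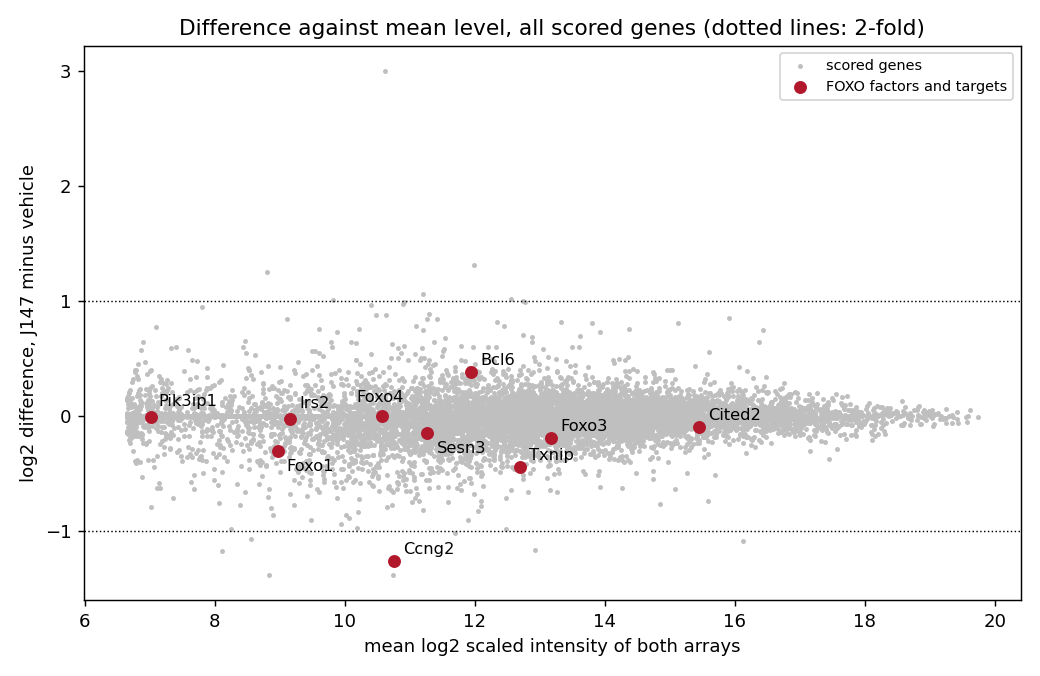
Log2 difference, J147 minus vehicle (vertical axis), against the mean log2 scaled intensity of both arrays (horizontal axis) for all 10611 scored genes (grey), with the 10 genes in red. Ccng2, at -1.26, is the only one of the 10 beyond the dotted 2-fold lines.

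Beyond these 10, a list of 34 further FOXO targets was examined, of which 33 were annotated and 24 were scored. By their brightest probe sets, 3 of the 24 were at least 1.5-fold lower with J147, 1 was at least 1.5-fold higher and 20 were neither. The shares of all scored genes were 0.81% lower and 0.556% higher. The 3 lower ones restrain growth or the cell cycle. Ddit4, an inhibitor of mTORC1, had a scaled intensity of 22481 with J147 and 38268 with vehicle, 1.70-fold lower. Cdkn1a, which encodes the cell cycle inhibitor p21, had 37978 with J147 and 63363 with vehicle, 1.67-fold lower, and its other probe set was lower too, with a log2 difference of -0.69. Gadd45a, a growth arrest and DNA damage gene, had 4829 with J147 and 7565 with vehicle, 1.57-fold lower. All 3 are also known as targets of p53, so they do not report on FOXO alone. The gene that was higher, Trib1, a pseudokinase that promotes turnover of C/EBP factors and whose place among FOXO targets is less well established, had 3666 with J147 and 2048 with vehicle, 1.79-fold higher. The other Trib1 probe set, at a low level, had a log2 difference of 0.19. The median log2 difference of the list, which also holds Ccnd1, a gene that FOXO proteins repress, was -0.09.

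The values of some more targets, all under 1.5-fold by the brightest probe set, are given as examples picked after they were seen. Atg12, an autophagy gene, and Rbl2, which encodes the pocket protein p130, had log2 differences of -0.41 and -0.36, but a second Rbl2 probe set had 0.01. Cdkn1b, the cyclin-dependent kinase inhibitor p27, had 14722 with J147 and 18092 with vehicle, a log2 difference of -0.30 with 21 of 500 neighbours as different, while its second probe set had identical deposited values. The antioxidant enzymes Sod2 and Cat had log2 differences of -0.05 and -0.16 by the brightest probe set, and ran from -0.23 to 0.06 and from -0.35 to -0.16 over all scored ones. Ccnd1, cyclin D1, which FOXO proteins repress, had a log2 difference of 0.20, and its 3 scored probe sets reached 0.44. Ccnd2, a further cyclin D gene of the list, had 0.10, and its 7 scored probe sets ran from -0.00 to 0.21. Bcl2l11, the proapoptotic BIM, had 3558 with J147 and 2402 with vehicle, 1.48-fold higher, but its 5 scored probe sets ran from -0.24 to 0.60 on the log2 scale.

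**Figure D4:**
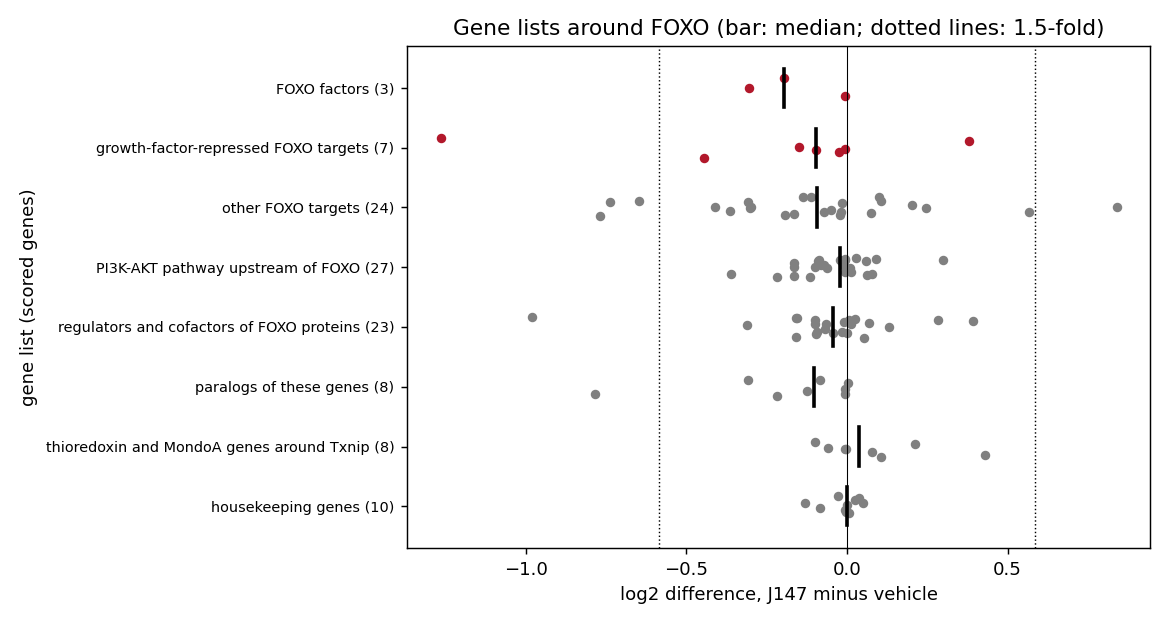
Scored genes (points) of 8 lists around FOXO (vertical axis, how many in parentheses) by their difference on the log2 scale (J147 minus vehicle, horizontal axis), with the list median as a bar and 1.5-fold dotted. Each gene is read from its brightest probe set, and by it the 27 PI3 kinase and AKT genes stay within 1.5-fold.

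By their brightest probe sets, the genes that carry growth factor signals to FOXO stayed under 1.5-fold. Of 27 scored genes of the PI3 kinase and AKT pathway, 0 were at least 1.5-fold lower or higher on that reading, and their median log2 difference was -0.02. The largest differences of brightest probe sets were those of Tsc1, a subunit of the complex that restrains mTORC1, with 4411 with J147 and 5670 with vehicle (log2 difference -0.36), and of Sgk1, a kinase that phosphorylates FOXO proteins at AKT sites, with 57857 with J147 and 47038 with vehicle (log2 difference 0.30). Probe sets of a gene disagreed here too. The 3 of Tsc1 ran from -0.36 to 0.01, and those of Rptor, the mTORC1 subunit raptor, had -0.59 and 0.09, of which the first is past 1.5-fold. The 4 of Igf1r, the receptor of insulin-like growth factor, ran from 0.02 to 0.33. Of 23 scored regulators and cofactors of FOXO proteins, 1 was at least 1.5-fold lower and 0 were higher by the brightest probe set, with a median of -0.04. The lower one was Mdm2, a ubiquitin ligase of p53 that also acts on FOXO proteins, with 4071 with J147 and 8039 with vehicle. The second scored Mdm2 probe set had a log2 difference of -0.65. Other scored probe sets reached 0.61 for Skp2, past 1.5-fold, and -0.53 for Mapk8, whose brightest had -0.10 and 0.28. By the brightest probe set the 6 scored 14-3-3 genes, which encode the proteins that hold phosphorylated FOXO in the cytoplasm, lay between -0.09 (Ywhaq) and 0.05 (Ywhab). Of 10 scored housekeeping genes, 0 passed 1.5-fold, and their median was -0.00.

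Among paralogs of the 10 genes, 8 were scored, with a median log2 difference of -0.10, and 1 passed 1.5-fold by the brightest probe set. This was Sesn2, the sestrin of the stress response, with 3326 with J147 and 5730 with vehicle, 1.72-fold lower, and its second probe set had a log2 difference of -0.61. Sesn1, also on the list of further FOXO targets, had -0.31 by its brightest probe set. Its 3 scored probe sets ran from -0.73 to -0.15, of which the first is past 1.5-fold. Ccng1, the paralog of Ccng2, had 173677 with J147 and 183964 with vehicle, a log2 difference of -0.08, while that of Ccng2 was -1.26. Foxo6 was not scored. Around Txnip, the thioredoxin gene Txn1 had a log2 difference of -0.00. Arrdc4, which shares with Txnip its arrestin fold and its control by MondoA, had identical deposited values on both arrays by its brightest probe set, while the second was lower with J147, at -0.31 on the log2 scale. By their brightest probe sets, 0 of the 8 scored genes of this list passed 1.5-fold. The largest difference on that reading was that of Mlxip itself, with 7971 with J147 and 5912 with vehicle, 1.35-fold higher. The next was Mlx, the partner of MondoA, with log2 differences of 0.21 and -0.06 by its 2 probe sets. Other scored probe sets of this list reached 0.51 for Txnrd2, 0.31 for Txnrd1 and -0.27 for Slc2a1. The brightest of these genes had -0.06, 0.08 and -0.10.

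Promoter windows of RefSeq, from 250 bases before to 50 bases after a start site, were searched on both strands. They matched 9 of the 10 genes with 10 windows, and Foxo4 was not matched. GTAAACA was found in 1 of the 10 windows (Txnip), and in 3.65% of all 32851 windows. CAAAACAA was found in 2 of the 10 (Ccng2 and Irs2) and in 2.51% of all windows. A match is a run of letters and does not show that a FOXO protein binds there, and the windows leave out distant elements.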

How the data were processed

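RNA from 1 J147-treated and 1 vehicle-treated HT22 culture was measured on Affymetrix mouse whole-genome arrays. The deposited values are log2 intensities that the authors computed with gcRMA in R. Affymetrix Expression Console 1.0 is also listed in the submitters' processing notes. The gcRMA version and a genome build are not given in the sources used here. Scaling and the filter on intensity follow the methods. Of 45037 probe sets, 34945 have 1 symbol, 932 several and 9160 none, and symbols were updated through Entrez numbers to RefSeq genes of GRCm38.p6. Only probe sets with 1 symbol were read. The members and lists were chosen with earlier results of these data known. The genes named beyond the 10 are, per list, those at least 1.5-fold different (at most 6) or else the 2 with the largest difference; others are stated as picked later. No search for genes of like pattern was made, since over 2 arrays any pair of genes correlates perfectly. Alternatives covered scaling, pseudocount, filter, probe set choice and threshold. Scripts ran under Python 3.11.15 with statsmodels 0.14.6, pandas 2.3.3, numpy 2.4.6 and matplotlib 3.10.9 and were tested on simulated data. The number of arrays limits the precision.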

Additional observations from a re-analysis of the deposited data

How the results depend on the processing

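Alternatives gave 239 values, of which 215 were close to those reported and 24 moved; for single genes close means within 1 SD of the 500 neighbours, for medians within 0.05 and for counts within 1.5 times. Over all settings the log2 difference ran from -1.26 to -0.93 for Ccng2, from -0.45 to -0.23 for Txnip, from -0.43 to -0.28 for Foxo1, from -0.47 to -0.18 for Foxo3 and from 0.38 to 0.40 for Bcl6. With the scored probe sets of each gene averaged, Ccng2 had -0.93, so 0 of the 10 genes were at least 2-fold lower, and 0 further FOXO targets were at least 1.5-fold higher. By the probe set with the largest difference, 135 scored genes were at least 1.5-fold lower and 130 higher, against 86 and 59 by the brightest. That choice gave medians of -0.43 for the FOXO factors, -0.18 for the further targets, -0.12 for the regulators, -0.17 for the paralogs and 0.16 for the genes around Txnip, and 2 further targets at least 1.5-fold higher, as did quantile normalization and the lowess curve (2 each). Without suffixed probe sets the median of the factors was -0.37. Further targets at least 1.5-fold lower numbered 4 there and 4 by the probe set with the largest difference, against the 3 reported above. Without a filter on intensity the further targets had a median of -0.0151 and the paralogs of -0.00459. At 0.32 log2 units in place of 1.5-fold, 2 of the 10 genes were lower and 1 higher. With CAAAACAA in place of GTAAACA, 2 promoters matched. Leaving out 5 further targets that p53 also regulates, chosen after seeing the data, gave a median of -0.021 and 0 at least 1.5-fold lower; all 3 lower genes were among the 5, so that count follows from the choice and says nothing about p53. Fewer genes, a lower filter or another threshold change these values by construction; the cause of the other moves was not tested. With 1 array per condition no array could be left out. No paired analysis was possible because each condition has 1 array. Probe sets near the lowest value (Pik3ip1, the second Ccng2 probe set) cannot show a fall in full.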
